A study of Macaca mulatta with 12 samples.

Results

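The TRBJ1 segments are the 6 joining (J) gene segments TRBJ1-1 to TRBJ1-6 of the first J cluster of the T cell receptor beta chain (TRB) locus. Their rearrangements were taken as the clonotypes whose first-listed J gene was a TRBJ1 gene, where a clonotype is a distinct CDR3 nucleotide sequence of a library. They were 84342 of 218326 clonotypes in all 12 libraries, of which 84268 lay in the 8 post-infusion libraries and 74 in the 4 baseline libraries. All 6 segments were found in each library.

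The libraries were made from RNA of frozen peripheral blood mononuclear cells of rhesus macaques, used as a model of transplantation. Apoptotic donor leukocytes (ADLs), white blood cells of a donor treated with a chemical cross-linker that sends them into apoptosis, were given on days -7 and 1 around the intended day of an islet transplant, day 0, but these animals received no graft. A figure legend of the study places the second infusion on day 0 instead. The animals named Amazo, Nebula and Rocket were sampled 2 days (day -5) and 3 days (day -4) after the first infusion, Nebula also at 7 days (day 0), and Amazo also 2 days after the second infusion (day +3). The 4 baseline libraries carry other names, so no name links a baseline to a post-infusion library. Whether any animal gave both cannot be read from the labels. The study gave the infused animals a short course of immunosuppression alongside the ADLs, so that infusion and drugs cannot be told apart.

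Each beta chain gene is assembled in a developing T cell by joining a D to a J segment and then a V segment to the DJ joint. The locus holds a first D segment, the TRBJ1 cluster and a first constant gene, followed by a second D segment, the TRBJ2 cluster and a second constant gene. The CDR3 is the stretch from the conserved cysteine of V to the conserved phenylalanine of J, it is the part of the chain that lies closest to the peptide, and bases lost from segment ends or added at the joints give it its diversity. Splicing of the transcript joins the 3′ end of the rearranged J segment to a constant exon and removes any J segments that lie downstream.

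The germline bases that each segment can give to the CDR3 carry the findings on length and reading frame, and are shown as read from untrimmed productive clonotypes, with the last codon, that of the conserved phenylalanine, in capitals.
TRBJ1-1: tgaacactgaagctttcTTT
TRBJ1-2: ctaactatgactacaccTTC
TRBJ1-3: ttctggaaacaccgtgtatTTT
TRBJ1-4: caactaatgaaaaactgtttTTT
TRBJ1-5: tagcaatcagccccagtatTTT
TRBJ1-6: ctcctataattcgcccctccacTTT
TRBJ1-1 and TRBJ1-2 give at most 20 bases, TRBJ1-3 and TRBJ1-5 give 22, TRBJ1-4 gives 23 and TRBJ1-6 gives 25. The TRBJ1-4 end holds the longest runs of a single base, 5 A and 6 T.

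Total counts lay between 63 and 74 in the baseline libraries and between 42695 and 556954 in the post-infusion libraries. More than 1 V hit was listed for 34.9% to 43.3% of baseline clonotypes and for 8.31% to 13.7% of post-infusion clonotypes, and since every baseline library was of the first kind, the time point and the kind of library cannot be told apart. Amazo day -5, Amazo day +3, Rocket day -5 and Rocket day -4 shared 58 to 67 of their 100 largest TRBJ1 clonotypes with each other, although they carry 2 animal names. The 3 Nebula libraries shared 54 to 57. Amazo day -4 shared 4 with Amazo day -5 and 0 with each of the other 6 libraries, so it went against its name. The V partner calls and the comparisons of the cluster with TRBJ2 are also given with libraries grouped by shared clonotypes.

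By clonotype, the cluster took 35.5% (Rocket day -5) to 42.8% (Nebula day 0) of each post-infusion library, with a median of 37.2%. The segments were used in the order TRBJ1-4, TRBJ1-2, TRBJ1-5, TRBJ1-1, TRBJ1-3 and TRBJ1-6. TRBJ1-4 took 8.08% to 10.1% of all clonotypes (median 9.12%) and was first of the 6 in 8 of 8 libraries. TRBJ1-6, the segment nearest to the first constant gene, took 2.97% to 3.76% (median 3.34%) and was last in 8 of 8. Between them lay TRBJ1-2 with 6.66% to 8.64%, TRBJ1-5 with 6.55% to 8.34%, TRBJ1-1 with 5.24% to 7.17% and TRBJ1-3 with 4.75% to 6.43%. The order of use did not follow the order of the segments on the chromosome.

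TRBJ1-4 exceeded TRBJ1-2 by 1.59 ± 0.476 percentage points (SD, n = 8 libraries) and in each library. TRBJ1-2 and TRBJ1-5 were neighbours whose difference of 0.325 ± 0.384 points (SD, n = 8) was smaller than its spread, with TRBJ1-2 higher in 7 of 8. TRBJ1-1 exceeded TRBJ1-3 by 0.552 ± 0.457 points (SD, n = 8) in 7 of 8 libraries. For comparison, the 7 TRBJ2 segments had mean clonotype shares of 3.74% (TRBJ2-6) to 11.4% (TRBJ2-7), and TRBJ1-4 ranked 5 and TRBJ1-6 ranked 13 among the 13 J genes.

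By count, which weighs each clonotype by its size, the cluster took 30.8% to 32.1% in the 4 libraries that share clonotypes under the names Amazo and Rocket, 42.0% in Amazo day -4 and 44.1% to 44.5% in the 3 Nebula libraries. The 95% Wilson interval was 44.0% to 45.0% in Nebula day -4, the library with the fewest counts, and 30.7% to 31.0% in Rocket day -5, the one with the most, and such intervals cover counting error only. The order by count was TRBJ1-4 (mean 8.82%), TRBJ1-1 (7.94%), TRBJ1-2 (7.17%), TRBJ1-5 (6.71%), TRBJ1-3 (4.34%) and TRBJ1-6 (2.68%). TRBJ1-4 was first in 5 libraries and TRBJ1-1 in 3, and neither the difference between them (0.880 ± 3.48 points, SD, n = 8) nor the next 2 steps down the order exceeded their spread. TRBJ1-3 and TRBJ1-6 took the lowest places, in that order, in each of the 8 libraries.

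**Figure D1:**
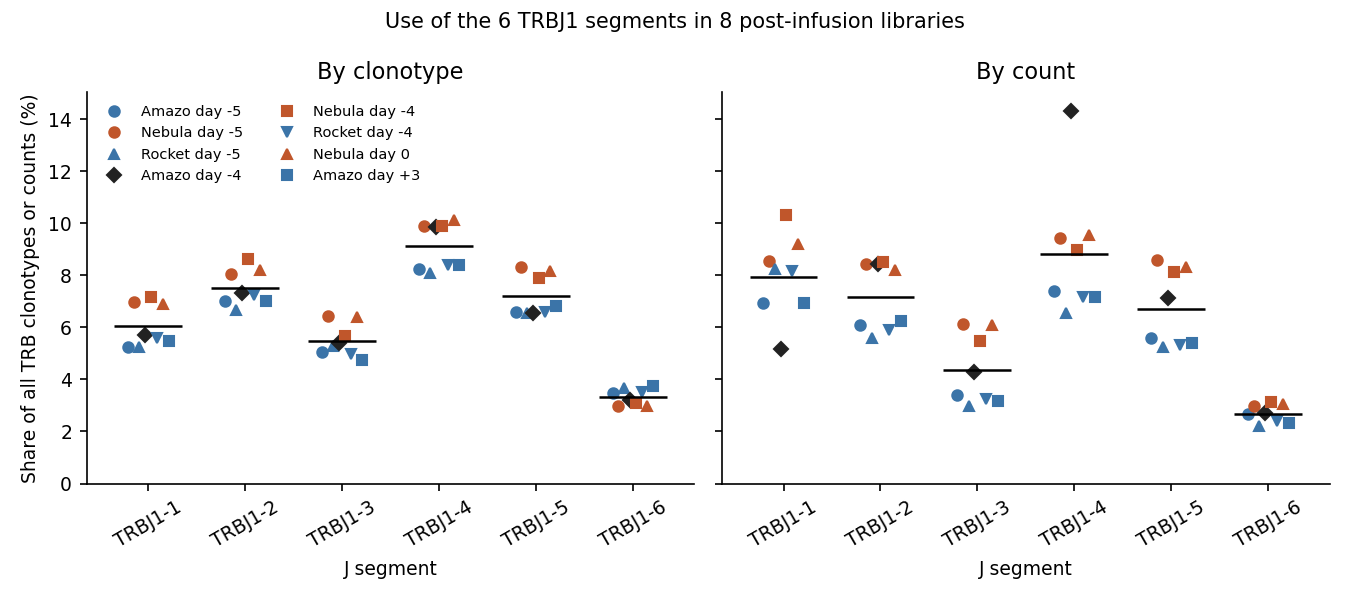
Share of all TRB clonotypes (left) and of all counts (right), in percent, for each TRBJ1 segment in the 8 post-infusion libraries, with colours for the libraries that share clonotypes (blue for Amazo day -5, Amazo day +3 and Rocket, orange for Nebula, black for Amazo day -4) and a line at the mean. By clonotype the segments keep nearly the same order in each library, with TRBJ1-4 at the top (mean 9.11%) and TRBJ1-6 at the bottom (3.34%), while by count Amazo day -4 stands apart at 14.3% for TRBJ1-4.

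The step from clonotypes to counts moved segments in opposite directions. TRBJ1-1 had a larger share of counts than of clonotypes in 7 of 8 libraries, and its clonotype share was lower than its count share by a mean difference of -1.89 ± 1.17 points (SD, n = 8). In these 7 libraries a single clone held 22.1% (Nebula day -5) to 64.2% (Rocket day -5) of TRBJ1-1 counts. It was a TRBV6-3 clone in the Nebula libraries and a TRBV9 clone in the others. In Amazo day -4, the exception, the largest clone held 5.84%. TRBJ1-3 had a smaller share of counts than of clonotypes in 8 of 8, with a mean difference of 1.15 ± 0.793 points (SD, n = 8). Over the whole cluster, the clonotype share minus the count share was 1.41 ± 3.09 points over the 3 animal names (SD, n = 3, exact sign-flip permutation test, two-sided p = 0.75, where 0.25 is the smallest possible). Its sign differed between libraries, from -4.0 to 4.96, and it was positive in 4 of 8. With the libraries grouped by shared clonotypes the difference was -0.458 points, and without Rocket it was -0.109.

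The largest clone of each segment and further clones of at least 1% of counts in any library are listed, since they show how much germline J sequence a clone keeps. Capitals mark the bases that the alignment gave to the J segment. In the TRBV21-1 and TRBV4-2 clones of TRBJ1-4 they start before the 23 germline bases shown above for that segment.
TRBV9 with TRBJ1-1: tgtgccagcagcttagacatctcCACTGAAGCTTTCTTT
TRBV6-3 with TRBJ1-1: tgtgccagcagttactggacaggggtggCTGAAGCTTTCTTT
TRBV7-3 with TRBJ1-2: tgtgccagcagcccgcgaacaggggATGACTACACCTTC
TRBV5-1 with TRBJ1-2: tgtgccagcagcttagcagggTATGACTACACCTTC
TRBV9 with TRBJ1-3: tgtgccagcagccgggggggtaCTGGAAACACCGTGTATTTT
TRBV5-1 with TRBJ1-4: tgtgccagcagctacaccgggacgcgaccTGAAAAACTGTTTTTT
TRBV21-1 with TRBJ1-4: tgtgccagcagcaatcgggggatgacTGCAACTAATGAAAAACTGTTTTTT
TRBV4-2 with TRBJ1-4: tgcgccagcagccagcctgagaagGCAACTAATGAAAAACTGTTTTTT
TRBV28 with TRBJ1-5: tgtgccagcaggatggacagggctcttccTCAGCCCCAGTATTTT
TRBV4-2 with TRBJ1-6: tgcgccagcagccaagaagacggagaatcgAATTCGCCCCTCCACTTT
The TRBV9 clone of TRBJ1-1 held 5.30% of counts in Rocket day -5, 4.80% in Rocket day -4, 3.44% in Amazo day -5 and 3.34% in Amazo day +3, and at most 0.00271% in the other 4 libraries. The TRBV6-3 clone of TRBJ1-1 held 1.88%, 4.07% and 2.83% in Nebula day -5, day -4 and day 0. The TRBV5-1 clone of TRBJ1-4 held 6.64% in Amazo day -4, against 0.0839% in Amazo day -5, and was the largest of those listed. TRBJ1-3 and TRBJ1-6 were the only segments with no clone of 1%, at 0.674% and 0.631% in the library where their largest clone was highest.

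TRBJ1-6 was read in 2 forms, ending in CTCCACTTT or in CTCTACTTT. The first form made up 96.6% to 99.1% of TRBJ1-6 clonotypes in 7 of the post-infusion libraries. In Amazo day -4 it made up 27.7%, and the second form 70.0%. The second form held 2.05% in Amazo day -5 and at most 0.320% in the other 6 libraries. Amazo day -4 thus stood apart from the libraries that share its name in a germline segment as well as in its clones. At baseline each library held TRBJ1-6 clonotypes of a single form, the second in libraries 1, 2 and 3 and the first in library 4, from 1 to 4 clonotypes each.

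The design compares 2 with 3 days after the first infusion within animal names, and each with baseline. Of their 100 largest TRBJ1 clonotypes, the 2 libraries of such a pair shared 57 in Nebula and 67 in Rocket, but 4 in Amazo. The Amazo pair is therefore tied by its name and hardly by its clonotypes. No TRBJ1 segment passed the test in any of the 3 comparisons (edgeR's quasi-likelihood test on counts per J gene, Benjamini-Hochberg adjustment over the 13 J genes, adjusted p below 0.05). The background was the same, with 0% of the 13 J genes called in each comparison. DESeq2 also called 0 in each, with 3, 3 and 2 genes at an unadjusted p below 0.05. At day -4 against day -5, 0 of the 13 genes had an unadjusted p below 0.05 in edgeR, and the log2 differences of the members lay between -0.15 (TRBJ1-1, SE 0.16) and 0.24 (TRBJ1-4, SE 0.19), with adjusted p of 0.557 or more by the same test. Without the 2 Amazo libraries, 2 J genes passed, neither of them in the cluster.

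Against baseline, TRBJ1-3 had the lowest unadjusted p. Its counts were 5, 2, 14 and 3 in baseline libraries 1 to 4, which is 6.85%, 3.17%, 18.9% and 4.29%. Its count share was 3.39%, 6.14% and 2.99% at day -5 in Amazo, Nebula and Rocket, and 4.27%, 5.46% and 3.23% at day -4. The groups overlapped, and baseline library 3 stood far above the rest. The log2 difference was -1.23 (SE 0.52) for day -5 and -1.15 (SE 0.53) for day -4 (adjusted p = 0.264 and 0.443, edgeR's quasi-likelihood test), and without baseline library 3 it was -0.16 and -0.09. It was the only gene of the 13 with an unadjusted p below 0.05 in either comparison in edgeR.

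The share of the whole cluster showed the same. It was 43.8%, 25.4%, 66.2% and 48.6% of counts in baseline libraries 1 to 4 (46.0% ± 16.8, SD, n = 4), 35.7% ± 7.34 at day -5 (SD, n = 3) and 39.6% ± 6.55 at day -4 (SD, n = 3). The baseline values enclosed all post-infusion values. The difference from baseline was -10.3 points at day -5 (p = 0.514) and -6.45 points at day -4 (p = 0.686), by exact two-sided permutation tests that cannot go below 0.0571. These tests, and those of single J genes against baseline, took each library as a separate unit. Amazo day -5 and Rocket day -5, however, shared 65 of their 100 largest TRBJ1 clonotypes. Without baseline library 3 the day -4 difference was 0.290 points. Between day -4 and day -5 the share differed by 3.90 ± 5.29 points (SD, n = 3 pairs, exact sign-flip permutation test, two-sided p = 0.25, the smallest possible). The 3 differences ran from 0.416 to 9.98 points, the largest in Amazo, the pair that shared few large clonotypes. Without Amazo the mean was 0.853. With each clonotype counted once the difference was 0.970 points.

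Productive clonotypes, those in frame and without a stop codon, were 76346 of the 84268 post-infusion TRBJ1 clonotypes, 5882 were out of frame and 2040 were in frame with a stop codon. Nonproductive clonotypes made up 3.54% to 8.35% of TRBJ1-1, 3.83% to 8.19% of TRBJ1-2, 5.23% to 9.75% of TRBJ1-5 and 6.08% to 10.2% of TRBJ1-6 clonotypes. TRBJ1-3 stood above all other segments in 8 of 8 libraries, and TRBJ1-4 stood above these 4 in 7 of 8, the exception being Nebula day -4 (7.02% against 7.50% in TRBJ1-6). TRBJ1-4 had 7.02% to 14.1% (median 10.1%), nearly all of it out of frame. TRBJ1-3 had 11.4% to 28.0% (median 21.0%), and here most carried a stop codon (6.22% to 19.0% of clonotypes, median 13.1%, against medians of 0.529% to 0.818% in the other 5 segments). Baseline held 3 nonproductive clonotypes among its 74.

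The 2 segments thus differed from the others in different ways. Of the 1606 TRBJ1-3 clonotypes with a stop codon, 1534 held the end of a second, upstream J segment inside the CDR3. In all, 1975 of the 11984 post-infusion TRBJ1-3 clonotypes were of this double-J kind, 637 with TRBJ1-1 and 1338 with TRBJ1-2. They were present in each of the 8 libraries, from 8.16% of TRBJ1-3 clonotypes in Nebula day -4 to 22.8% in Rocket day -5 (median 16.8%), and in 0 of the 12 baseline TRBJ1-3 clonotypes. TRBJ1-2 had 3 double-J clonotypes, TRBJ1-5 had 1, and the other 3 segments had 0. In TRBJ2, the largest such class was TRBJ2-4 followed by TRBJ2-5, with 70 clonotypes in 8 libraries, before TRBJ2-5 followed by TRBJ2-6 with 11, TRBJ2-1 followed by TRBJ2-2 with 5 and TRBJ2-3 followed by TRBJ2-4 with 1.

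Double-J clonotypes are shown in full, because their structure recurred in most of the 1975 and in every library. Capitals mark the last 12 CDR3 bases of the upstream J segment and the 28 bases that follow it there.
TRBV9 with TRBJ1-1 and TRBJ1-3, Rocket day -5: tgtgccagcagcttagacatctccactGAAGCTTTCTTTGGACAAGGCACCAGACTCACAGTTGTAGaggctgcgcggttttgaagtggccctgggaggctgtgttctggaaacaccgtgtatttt
TRBV6-3 with TRBJ1-1 and TRBJ1-3, Nebula day -5: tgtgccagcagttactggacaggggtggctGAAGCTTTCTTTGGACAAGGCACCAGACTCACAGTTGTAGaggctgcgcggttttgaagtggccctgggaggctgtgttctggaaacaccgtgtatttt
TRBV5-1 with TRBJ1-2 and TRBJ1-3, Amazo day -4: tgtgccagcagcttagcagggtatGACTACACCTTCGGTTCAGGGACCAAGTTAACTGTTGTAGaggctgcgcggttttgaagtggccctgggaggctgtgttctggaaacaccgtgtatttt
Each of these began with a V to J joint, continued past the CDR3 end of the upstream J segment, and ended in untrimmed TRBJ1-3. The stretch between the J segments came in nested forms of 37, 40 and 50 bases, each found with both TRBJ1-1 and TRBJ1-2. The forms are shown with TRBJ1-3 in capitals.
Shortest form: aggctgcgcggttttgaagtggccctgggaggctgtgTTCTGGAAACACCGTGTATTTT
Middle form: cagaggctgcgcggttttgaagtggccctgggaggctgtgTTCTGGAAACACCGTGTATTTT
Longest form: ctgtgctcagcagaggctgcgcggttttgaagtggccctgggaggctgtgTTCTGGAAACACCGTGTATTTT
With TRBJ1-1, 542 of the 637 clonotypes held the shortest form, 42 the middle form and 27 the longest. With TRBJ1-2, these were 1146, 100 and 42 of the 1338. The bases directly before TRBJ1-3 match the heptamer letters CACTGTG of a recombination signal at 5 of 7 positions and, after a gap of 12 bases, the nonamer letters GGTTTTTGT at 6 of 9, which is a description of letters and not of a site in use.

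The clones printed above give examples of how such a sequence relates to its single-J counterpart. The TRBV9 clone of TRBJ1-1 had 29531 counts in Rocket day -5 and its double-J form 488, which is 1.65 per 100. The TRBV6-3 clone had 8029 in Nebula day -5 and its double-J form 67, or 0.834 per 100. The TRBV5-1 clone of TRBJ1-2 had 6700 in Amazo day -4 and its double-J form 102, or 1.52 per 100. These examples lay below the rates of their libraries. Double-J counts with TRBJ1-1 were 2.91 per 100 TRBJ1-1 counts in Rocket day -5 and 2.96 in Nebula day -5. Those with TRBJ1-2 were 5.40 per 100 TRBJ1-2 counts in Amazo day -4. Over all clonotypes, the joint of a double-J clonotype was also present without TRBJ1-3 in the same library for 249 of 1975, and of the 247 with the same V gene the single-J form was the larger in 189. The other joints were seen only in the double-J form at this depth.

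Most double-J clonotypes carried the same V gene. TRBV23-1 accounted for 1224 of the 1975 (62.0%) and for 9.07% of all clonotypes. Of the TRBV23-1 rearrangements that reached TRBJ1-1 or TRBJ1-2, 42.6% were double-J (1224 against 1649 single-J), and of those of all other V genes 2.62% (751 against 27862). The libraries ran from 22.3% to 47.4% for TRBV23-1 and from 0.930% to 4.05% for the other V genes, without overlap in any of the 8 libraries. Nebula day -4, the library with the fewest counts, was the lowest on both sides. The next V gene by number was TRBV2-2 with 51, a share of 12.8% (51 against 348 single-J), and TRBV5-3 had a share of 20.3% from few clonotypes (15 against 59).

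**Figure D2:**
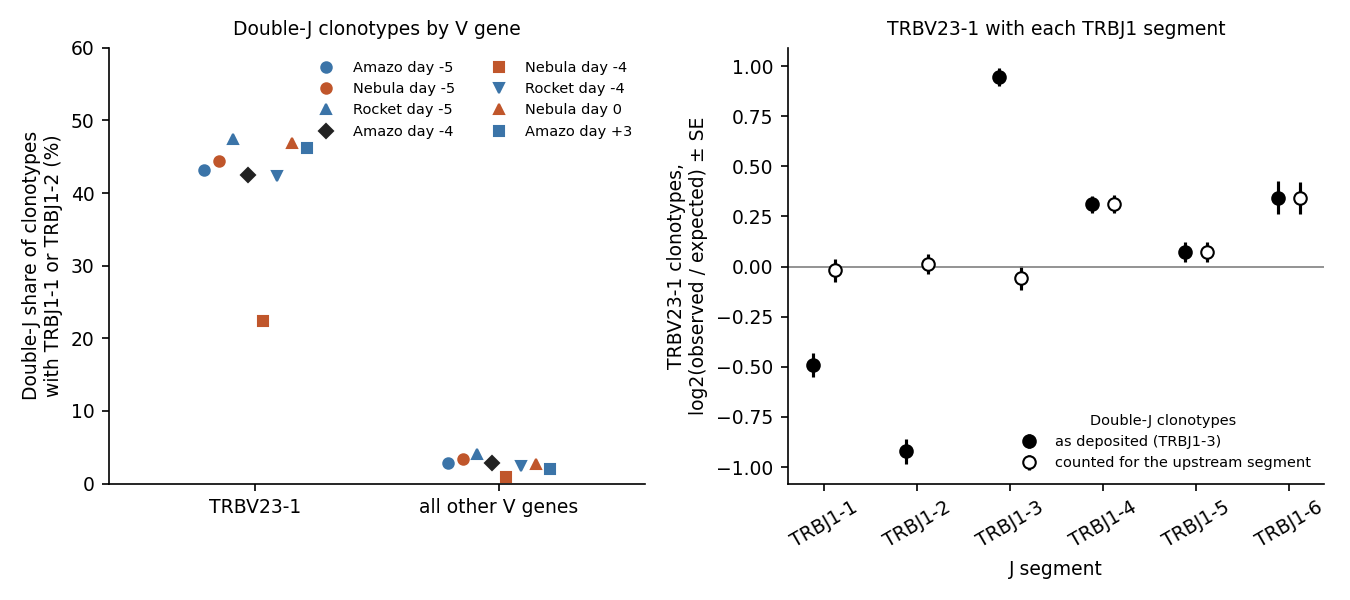
Left, double-J clonotypes as a percentage of all clonotypes that hold TRBJ1-1 or TRBJ1-2, for TRBV23-1 and for all other V genes, 1 point per post-infusion library. Right, log2 of observed over expected TRBV23-1 clonotypes with each segment (fit over 3 animal names, bars SE), with double-J clonotypes left with TRBJ1-3 (filled) or counted for the upstream segment (open). Counted for the upstream segment, the values of TRBJ1-1, TRBJ1-2 and TRBJ1-3 lie at -0.02, 0.01 and -0.06. With double-J clonotypes left out (not plotted) they were -0.41, -0.84 and 0.02, but this left the clonotypes observed with TRBJ1-1 and TRBJ1-2 unchanged.

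The upstream joint of double-J clonotypes was out of frame more often than the joints of TRBJ1-1 and TRBJ1-2 clonotypes read alone, 15.5% to 28.6% (median 18.7%) against 3.49% to 7.52% (median 5.56%), again without overlap between the 8 pairs of values. TRBV23-1 had a high out-of-frame share also where it was joined directly, 12.4% of its TRBJ1-1 and TRBJ1-2 clonotypes against 5.02% for other V genes. Within the other V genes alone, 19.2% of double-J joints were out of frame. Whether the double-J forms came from transcripts or arose in library preparation was not tested.

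Without double-J clonotypes, TRBJ1-3 had 3.49% to 7.41% nonproductive clonotypes. The median of 5.06% lay below that of each other segment, the lowest of which was 5.60% in TRBJ1-2. A stop codon was then found in 0.696% of TRBJ1-3 clonotypes in the median library, within the range of the medians of the other segments. The part of double-J clonotypes in the cluster can be read from the comparison with TRBJ2. The nonproductive share of the cluster exceeded that of TRBJ2 by 2.40 ± 0.164 points over the 3 names (SD, n = 3, exact sign-flip permutation test, two-sided p = 0.25, the smallest possible), and in 8 of 8 libraries (1.19 to 3.39 points). With libraries grouped by shared clonotypes it was 2.63 points. Without double-J clonotypes, an alternative chosen after seeing the data, the difference was 0.269 ± 0.257 points (SD, n = 3), positive in 6 of 8 libraries.

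**Figure D3:**
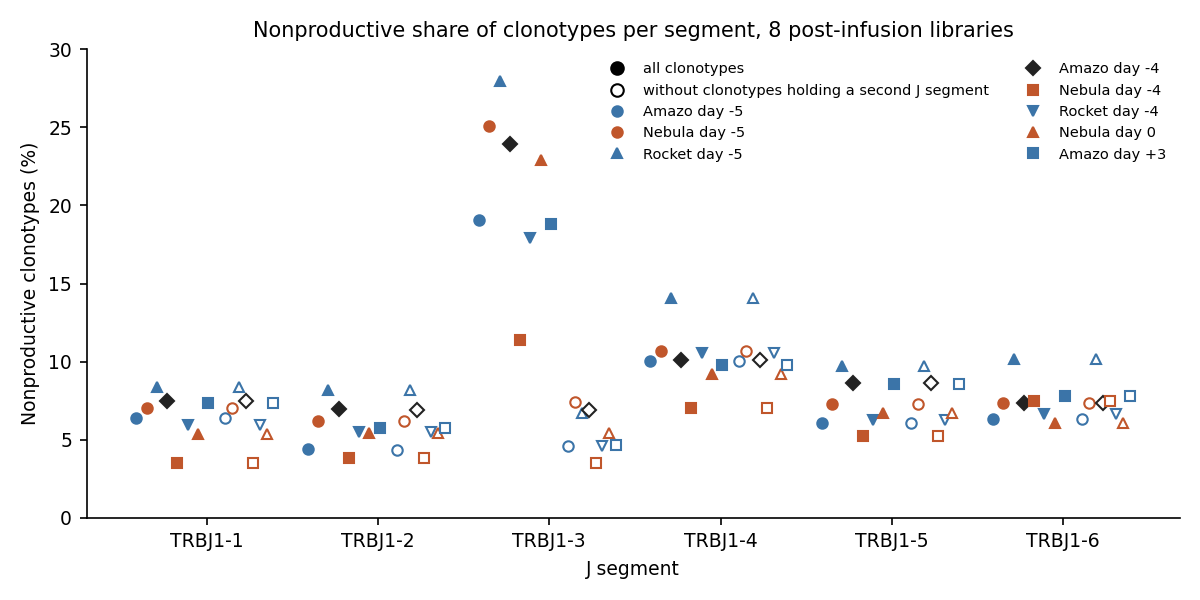
Nonproductive clonotypes as a percentage of all clonotypes of each TRBJ1 segment in the 8 post-infusion libraries, for all clonotypes (filled) and without those that hold a second J segment (open). TRBJ1-3 moves from a median of 21.0% to 5.06% and the other segments stay in place.

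TRBJ1-4 had the highest share of out-of-frame clonotypes of the 6 segments in 6 of 8 libraries, 6.69% to 13.4% (median 9.46%) against medians of 5.18% to 7.37% in the other 5 segments. In Amazo day -4 TRBJ1-3 was higher (9.78% against 9.48%), and in Nebula day -4 TRBJ1-6 was (6.96% against 6.69%). Of its 1890 out-of-frame clonotypes, 808 (42.8%) had a change within the last 12 bases of the CDR3, which hold the run of T and the end of the run of A, against 3.91% of its in-frame clonotypes. By library this share was 36.4% to 49.7%. In the other segments 3.38% to 12.3% of out-of-frame clonotypes had such a change. The highest of these, 12.3% in TRBJ1-6, rested on Amazo day -4, the library with the other TRBJ1-6 form (55.8%), and was 7.03% (30 of 427) without that library. In 455 of the TRBJ1-4 cases (24.1%) a larger productive clonotype of the same library, V gene and J gene differed by the gain or loss of 1 base, against 6.26% to 12.9% in the other segments. The part of base-run errors in the reads was not tested.

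Use within productive and within nonproductive clonotypes differed accordingly. TRBJ1-3 took 4.71% ± 0.508 of productive and 14.3% ± 2.94 of nonproductive clonotypes (SD, n = 8). TRBJ1-4 took 8.90% ± 0.939 and 11.5% ± 0.895, and TRBJ1-2 took 7.70% ± 0.691 and 5.39% ± 0.641. Counting double-J clonotypes for the upstream segment kept the order by clonotype, with means of 8.13% for TRBJ1-2 and 4.59% for TRBJ1-3, and it kept TRBJ1-4 first (9.11%).

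Productive CDR3s were shorter in TRBJ1-1 and TRBJ1-2 than in the other 4 segments. In TRBJ1-1 and TRBJ1-2, the segments with the shortest ends, the mean length was 41.4 ± 0.0995 and 40.9 ± 0.139 nucleotides (SD, n = 8). In TRBJ1-3, TRBJ1-4, TRBJ1-5 and TRBJ1-6 it was 43.7 ± 0.286, 43.5 ± 0.0888, 43.9 ± 0.145 and 44.2 ± 0.289 nucleotides (SD, n = 8). Over all libraries, the most common length was 42 nucleotides (14 codons) for TRBJ1-1, TRBJ1-2 and TRBJ1-3 and 45 nucleotides (15 codons) for the other 3. It was 42 in 6, 7 and 6 of the 8 libraries for the first 3 segments and 45 in 8 of 8 for each of the others. The spread within a segment was similar throughout, 4.61 to 5.07 nucleotides as the mean SD per library.

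The J segments did not keep all of these bases. TRBJ1-6, with the longest end, lost a mean of 6.11 ± 0.192 bases and TRBJ1-4 lost 5.42 ± 0.0782, while TRBJ1-3 lost 2.91 ± 0.187 (SD, n = 8). Untrimmed J ends made up 30.4% ± 2.57 of productive TRBJ1-3 clonotypes, against 6.81% ± 0.802 in TRBJ1-6 and 7.75% ± 0.655 in TRBJ1-2 (SD, n = 8). TRBJ1-3 and TRBJ1-6 gave 19.3 and 19.0 J bases on average, TRBJ1-2 gave 15.6, and the stretch between V and J was shortest in TRBJ1-3 (11.6 bases) and longest in TRBJ1-4 (13 bases). TRBJ1-3 also had the most clonotypes with no D segment named, 32.4% ± 1.2 against 23.1% ± 0.945 in TRBJ1-4 (SD, n = 8). Over the cluster, the first D segment was named in 63.9% of productive clonotypes and the second, which lies downstream of TRBJ1, in 9.15%. In TRBJ2 these were 42.7% and 33.1%. The names are those of the alignment, and whether they were right was not tested, so 9.15% is not a measure of real joints.

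As a cluster, productive TRBJ1 clonotypes were shorter than TRBJ2 clonotypes by a mean difference of -1.0 ± 0.0545 nucleotides (SD, n = 3 names, exact sign-flip permutation test, two-sided p = 0.25, the smallest possible), and in 8 of 8 libraries (-1.08 to -0.892). With libraries grouped by shared clonotypes it was -0.970, and weighted by counts it was -0.530. Within the cluster, weighting by counts moved TRBJ1-5 most in a single library, to 40.9 nucleotides in Amazo day -4. Double-J clonotypes, which are left out of these productive lengths with 1 exception, had a mean CDR3 length of 129 nucleotides, against 43.9 for the other TRBJ1-3 clonotypes.

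**Figure D4:**
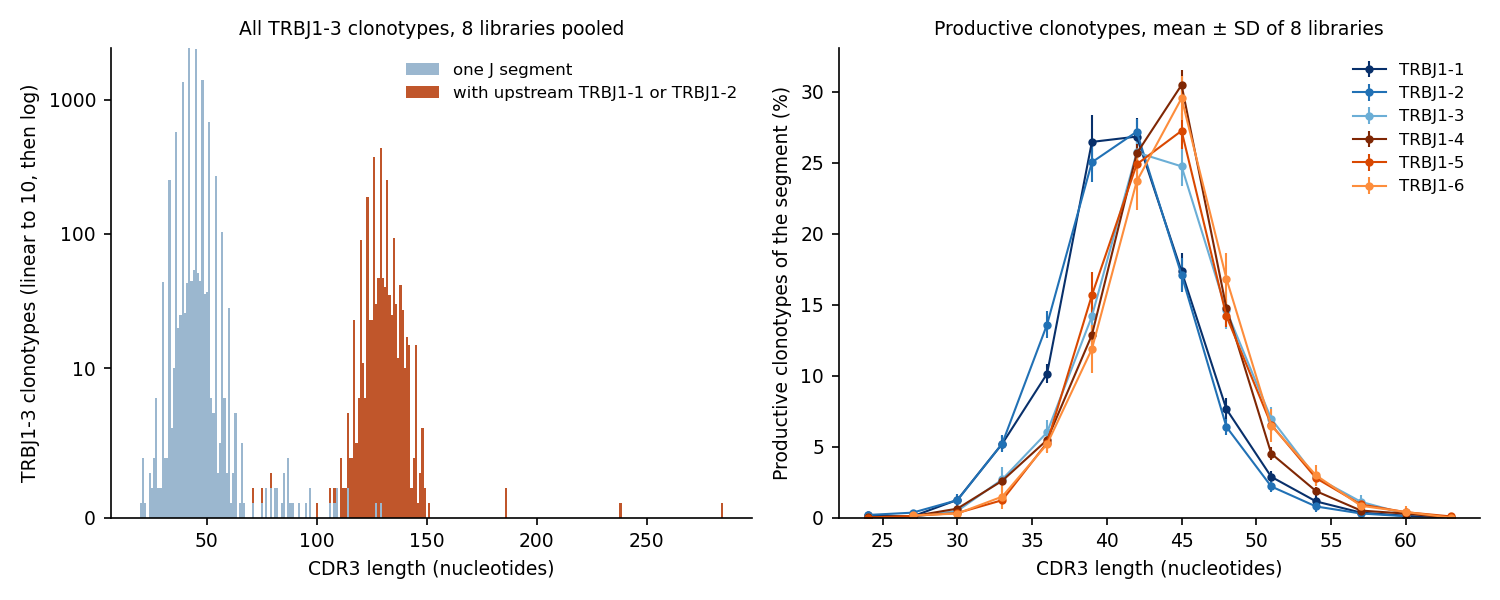
Left, number of TRBJ1-3 clonotypes by CDR3 length in nucleotides, 8 post-infusion libraries pooled, on an axis that is linear to 10 and logarithmic above, with double-J clonotypes in orange. Right, percentage of productive clonotypes of each segment at each length (mean ± SD of 8 libraries). Double-J clonotypes form a separate peak around 129 nucleotides, and TRBJ1-1 and TRBJ1-2 lie to the left of the other 4 segments.

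V partners were broad. All 61 V genes seen after infusion were joined to a TRBJ1 segment, 57 of them to all 6, and 348 of 366 possible pairs occurred. TRBV23-1, TRBV27 and TRBV5-1 led nearly throughout. TRBV23-1 was the most frequent partner of TRBJ1-1 (6.59% of its clonotypes), TRBJ1-3 (17.6%), TRBJ1-4 (11.4%), TRBJ1-5 (9.87%) and TRBJ1-6 (11.4%), and TRBV27 was that of TRBJ1-2 (6.72%). TRBV27 and TRBV5-1 took the next places in TRBJ1-1 (5.90% and 5.48%), TRBJ1-3 (5.15% and 5.43%), TRBJ1-4 (6.33% and 6.74%) and TRBJ1-5 (6.18% each). TRBJ1-2 had TRBV12-2 (5.58%) and TRBV5-1 (5.41%), and TRBJ1-6 had TRBV27 (6.53%) and TRBV6-1 (5.42%). For TRBV12-2 with TRBJ1-2, 46.1% of clonotypes had a single V hit, so that this pair is uncertain, while the other pairs of this list had 100%.

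Each pair was then set against the number expected if V and J were used independently in the same library. Of 269 TRBJ1 pairs tested, 43 (16%) were above and 59 (21.9%) below expectation (edgeR's quasi-likelihood test over 3 animal names, Benjamini-Hochberg adjustment over 595 pairs of all J genes). Over all J genes, 16.6% were above and 18.7% below, so that the cluster lay near the background. With libraries grouped by shared clonotypes, 38 pairs were above and 44 below, and without Amazo, 20 were above and 16 below. The calls spread unevenly over the segments, with 28 of 48 pairs of TRBJ1-4 and 23 of 46 of TRBJ1-2, and 7 of 42 of TRBJ1-6, the segment with the fewest clonotypes. The median log2 ratio was -0.08 for TRBJ1 pairs and -0.03 for all pairs.

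The pairs above expectation that lay on the same side of 1 in all 8 libraries were led by TRBV30 with TRBJ1-1, at a fitted ratio of 1.97 (229 clonotypes, 116 expected, 1.26 to 2.46 by library). TRBV30 was also high with TRBJ1-3 (1.75, 1.13 to 1.93). TRBV23-1 with TRBJ1-3 had a ratio of 1.93 (2105 clonotypes, 1102 expected), and 58.1% of these clonotypes were double-J. TRBJ1-1 also exceeded expectation with TRBV19 (1.58) and TRBV5-10 (1.53), and TRBJ1-2 with TRBV28 (1.66), TRBV21-1 (1.55) and TRBV29-1 (1.52). The adjusted p of these 8 pairs ran from 4.86e-10 to 0.00776 in that test.

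Below expectation, TRBV11-1 with TRBJ1-2 had the lowest fitted ratio, 0.257 (30 clonotypes, 117 expected, 0.176 to 0.388 by library). TRBV11-1 was also low with TRBJ1-4 (0.534), as were TRBV11-3 (0.399), TRBV25-1 (0.519) and TRBV7-4 (0.573). TRBJ1-6 was low with TRBV29-1 (0.396) and TRBV4-1 (0.511). In the first of these Amazo day -4, which carries mostly the other TRBJ1-6 form, had the highest ratio, 0.827, and Nebula day -5 the lowest, 0.0754. TRBV29-1 was thus above expectation with TRBJ1-2 and below it with TRBJ1-6. TRBV23-1 with TRBJ1-2 was at 0.528 (790 clonotypes, 1497 expected).

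**Figure D5:**
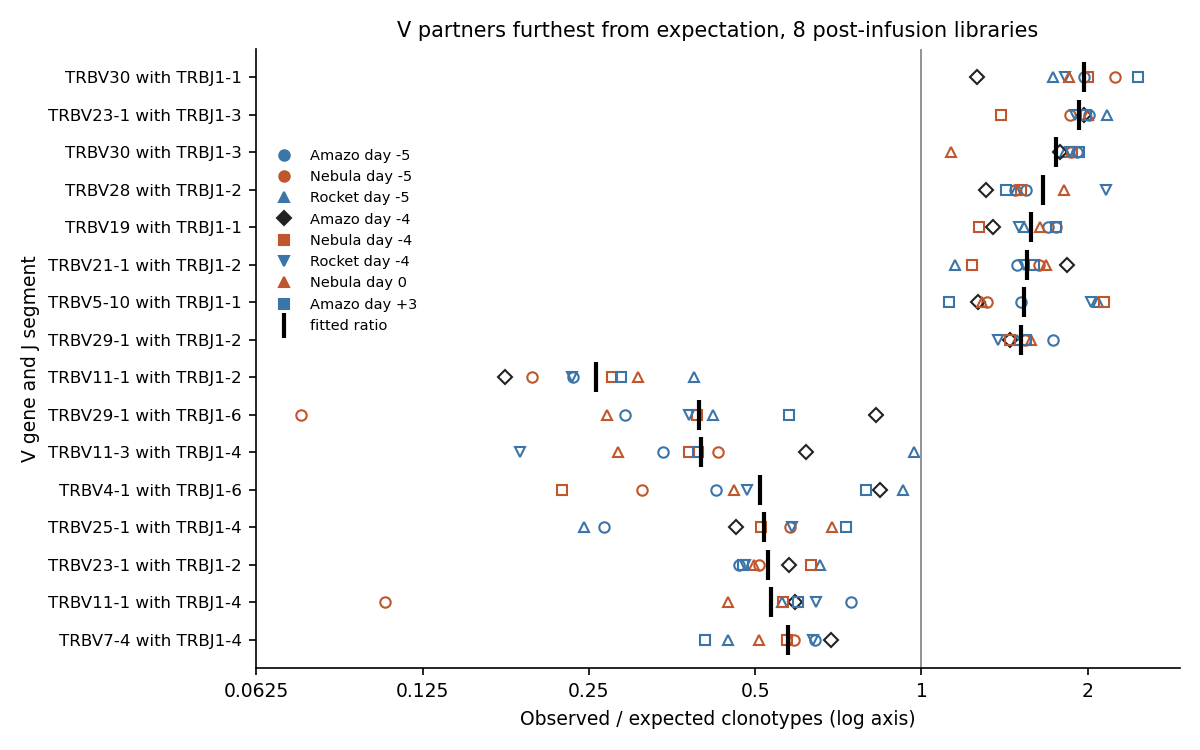
Observed over expected clonotypes (log axis) for the 8 pairs with the largest and the 8 with the smallest fitted ratio, among called pairs on the same side of 1 in all 8 post-infusion libraries. Symbols are libraries, coloured by shared clonotypes as in the plot of segment use, and the bar is the fitted ratio. TRBV23-1 appears on both sides, above 1 with TRBJ1-3 (1.93) and below 1 with TRBJ1-2 (0.528).

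The TRBV23-1 values depended on how double-J clonotypes were counted. As deposited, TRBV23-1 had log2 ratios of -0.49 (SE 0.06) with TRBJ1-1, -0.92 (SE 0.06) with TRBJ1-2 and 0.95 (SE 0.05) with TRBJ1-3. When double-J clonotypes were counted for the upstream segment, an alternative chosen after seeing the data, these were -0.02 (SE 0.06), 0.01 (SE 0.05) and -0.06 (SE 0.06), with adjusted p of 0.840, 0.853 and 0.483 by edgeR's quasi-likelihood test. When double-J clonotypes were left out instead, also chosen after seeing the data, the values were -0.41 (SE 0.06) with TRBJ1-1, -0.84 (SE 0.06) with TRBJ1-2 and 0.02 (SE 0.05) with TRBJ1-3, with adjusted p of 0.000531, 1.47e-05 and 0.798 in the same test. Leaving double-J clonotypes out did not change the TRBV23-1 clonotypes observed with TRBJ1-1 and TRBJ1-2, only the number expected. Values below expectation with these segments were thus carried over from the first fit. That fit cannot decide whether TRBV23-1 reached TRBJ1-1 and TRBJ1-2 less often than expected. With TRBJ1-4 and TRBJ1-6 its log2 ratios were 0.31 and 0.34 in the first and second fits and 0.39 and 0.42 with double-J clonotypes left out.

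The share of TRBJ1 among the clonotypes of a V gene ran from 27.2% (TRBV7-4) to 49.9% (TRBV28) in the 43 V genes with at least 50 clonotypes in each library, with a median of 37.2%. TRBV28, TRBV29-1 (48.4%) and TRBV30 (48.3%) lay above the share of their library in 8 of 8 libraries. TRBV7-4, TRBV2-2 (27.5%) and TRBV10-2 (27.5%) lay below it in 8 of 8. In all, 7 V genes lay above in every library and 16 below. Across 42 V genes and within the cluster, the log2 ratios of TRBJ1-2 were most like those of TRBJ1-4 (r = 0.56) and least like those of TRBJ1-3 (r = 0.01). With the TRBJ2 segments, r of TRBJ1-2 ran from -0.69 (TRBJ2-3) to -0.09 (TRBJ2-6), and that of TRBJ1-6 from -0.57 (TRBJ2-1) to 0.19 (TRBJ2-4). Expected numbers came from the V and J totals of the same libraries. A V gene above expectation with some J genes must therefore lie below it with others, so negative r is partly built in. These r values describe V genes of the same libraries as deposited, with double-J clonotypes left with TRBJ1-3.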

How the data were processed

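TRB transcripts of 12 libraries were read from poly A RNA by template-switch cDNA synthesis, PCR with a constant region primer and paired-end MiSeq sequencing. The authors ran Trimmomatic on the reads, then MiXCR at default settings against known rhesus TRB segments (version and genome build not given in the sources used here), and deposited for each clone a whole-number count and a fraction of the library. Their methods state barcode collapse and a clone threshold of 0.5%. No barcode column is in the files and clones far below that threshold are listed, so a count may be a read or a molecule.

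From the deposited counts, the first-listed V, D and J genes were used. Out of frame and stop were read from the marks in the CDR3 translation. A second J segment was called in a CDR3 of more than 60 nucleotides where the last 12 CDR3 bases of another J segment, or the 12 bases that follow them, lay at least 30 bases before the end. J genes that reached 10 counts in 3 or more libraries were tested with edgeR 4.0.16 in R 4.3.3 (quasi-likelihood, TMM, animal name as block for day -4 against day -5), with DESeq2 1.42.0 as an alternative. V and J pairs with at least 10 expected clonotypes per name were tested with edgeR on clonotypes per animal name, with the expected number as offset. Single values were compared by exact permutation over animal names or libraries. Names in the labels tie day -5 to day -4, and the correlation of their deviations over the 13 J genes was 0.98 for Rocket, 0.85 for Nebula and -0.23 for Amazo. Between different names it ran from -0.97 (Nebula day -5 with Rocket day -4) to 0.79 (Amazo day -5 with Rocket day -4). Deviations were taken from the mean of the few libraries of a day, so large values of either sign are partly built in. Nothing beyond these names says that libraries are separate samples. The p-values measure the spread between libraries, or between animal names where values were taken per name, and either spread may be technical.

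All 6 segments were described. The V partners named are the 3 most frequent per segment and the 8 highest and 8 lowest called ratios on the same side of 1 in all 8 libraries, and the clones named are the largest of each segment and those of at least 1% in any library, of which 1 is not reported here. The members and lists were chosen with earlier results of these data known. Scripts were tested on simulated data. A count of 0 allows up to 3 counts, a share of 4.05% to 4.76% at baseline and of 0.000539% to 0.00703% after infusion.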

Additional observations from a re-analysis of the deposited data

Results flagged for a closer look

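Of 42 groups of libraries examined for a single library far from the others, 4 held one, and chance flags about 1 in 20 groups. TRBJ1-1 held 18.6% of counts in baseline library 4, with the next baseline library at 6.76%, and 8 of its 13 counts there were a single clone. TRBJ1-4 held 14.3% of counts in Amazo day -4, with the next post-infusion library at 9.56%, and the TRBV5-1 clone held 46.3% of the TRBJ1-4 counts of that library. Nonproductive clonotypes made up 10.2% of TRBJ1-6 in Rocket day -5, with the next library at 7.79%. The CTCTACTTT end made up 70.0% of TRBJ1-6 clonotypes in Amazo day -4, with the next library at 2.05%.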

How the results depend on the processing

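Of 126 alternative results, 119 kept their direction and their side of the threshold (counts of calls within 1.5 times). The exact permutation tests cannot go below 0.0571, so their side of the threshold was fixed in advance and only their direction could change. The size of a difference was not judged. The nonproductive share of TRBJ1 minus TRBJ2 was counted as kept when it fell from 2.40 to 0.269 points without double-J clonotypes. Leaving out Amazo raised the J genes called between day -4 and day -5 from 0 to 2 (range 0 to 2) and lowered the TRBJ1 V partners above expectation from 43 to 20 (range 20 to 48) and those below from 59 to 16 (range 16 to 64). Leaving out Nebula day -5 raised the J genes called against baseline from 0 to 2, with 6 J genes left to test (range 0 to 2). The TRBJ1 share at day -4 minus baseline ran from -13.3 to 0.290 points and changed sign without baseline library 3. The share by clonotype minus by count ran from -0.109 to 2.98 points, changed sign without Rocket, and was -0.458 with libraries grouped by shared clonotypes. The cause of these changes was not tested. Without the replicate block, 0 J genes were called between day -4 and day -5 and the share differed by the same 3.90 points (p = 0.5, exact permutation test), so the block changed no call. Depth limits the baseline libraries most, with 63 to 74 counts each.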
